A study of Homo sapiens with 3 samples.

Results

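The genes described here are 7 that make, sense or remove prostaglandins: PLA2G4A, PTGS1, PTGS2, PTGES, PTGER2, PTGER4 and HPGD. They were chosen by symbol, as the probe sets paired with exactly 1 gene symbol, and they account for 16 probe sets among the 41097 with 1 symbol and for 7 of the 19775 genes measured. All 7 were found, and no filter on low values was applied. The choice was made with results of these arrays known, PTGS2 among them, so the members' differences from vehicle are a description with no test. The cells were MDA-MB-231, an established human breast cancer line that is generally regarded as lacking oestrogen receptor alpha.

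Each of the 3 groups had 1 array. The vehicle cells received 0.1% ethanol, the estradiol cells that oestrogen at 1 µM, and the ERα17p cells a peptide from the sequence of oestrogen receptor alpha, also at 1 µM. Before treatment all 3 cultures spent 4 h in medium whose serum (10%) had been stripped of most steroids with charcoal, and treatment in such medium lasted 3 h. No source used here names the peptide's solvent, and an ethanol share is recorded here for the vehicle cells only. Either comparison with vehicle may therefore hold a solvent difference. No value has a replicate error, no test was possible, and every difference describes these arrays only. In RNA from a whole culture, fewer cells that express a gene and less of its RNA per cell cannot be told apart.

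Prostaglandins are short-lived lipid signals made from arachidonic acid. A phospholipase frees the acid from membranes, a cyclooxygenase turns it into an unstable intermediate, and a terminal synthase turns that into one prostaglandin, which acts on receptors of the same or nearby cells and is then oxidised to a weak product. The cyclooxygenase PTGS2 (COX-2) is an early response gene whose RNA is short-lived, whereas PTGS1 (COX-1) is present in many tissues at a steady level. In breast cancer, PTGS2 and the prostaglandin made by PTGES have long been studied for their links with invasion and inflammation.

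After both treatments PTGS2 was far above its value on the vehicle array, 6.22-fold with estradiol and 6.73-fold with ERα17p. PTGES was also above vehicle with both, 1.91-fold and 1.68-fold. PLA2G4A was 2.17-fold above vehicle with estradiol and 1.23-fold with ERα17p, and it was the member that differed most between the treated arrays. PTGS1, PTGER4 and HPGD lay within 1.5-fold of vehicle in both comparisons, and PTGER2 was close to that limit. The limit for calling a gene higher or lower was 1.5-fold, a log2 difference of 0.58.

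Before deposit, each probe set's values had been centred on a reference that no source describes. A value of 0 is that reference and not an absence of RNA. No expression level, detection call or comparison of levels between genes can be given, and the line could not be checked against the levels of its defining markers. The vehicle array spread more widely than the others. Its SD over 54675 probe sets was 0.494, against 0.260 with estradiol and 0.241 with ERα17p. Bacterial RNAs spiked in before labelling (dap, lys, phe and thr, 24 probe sets) were a median of 2.14 and 2.10 log2 higher on the treated arrays than on the vehicle array. The bacterial control trp (3 probe sets) was at 0.10 and 0.18, and whether trp RNA was added was not checked. Spikes added at hybridisation (18 probe sets) were at -0.74 and -0.93. Between the treated arrays the medians were 0.00, 0.14 and -0.15 for these classes in turn. The 18S ribosomal RNA (3 probe sets) was at 0.11 with estradiol and 0.67 with ERα17p against vehicle, and 0.53 higher with ERα17p than with estradiol. Each difference from vehicle below rests on that single vehicle array. Only the comparison of the treated arrays with each other subtracts no vehicle value. The submitters' RMA includes a step that gives arrays the same distribution (quantile normalisation). Whether the vehicle array took part in that step is not stated, so the comparison of the treated arrays may depend on it too. For the members, that comparison is given too, with values against the deposited reference for some. The reference may itself include the vehicle array, on which 7.08% of probe sets were exactly 0, against 8.14% and 8.54% with estradiol and ERα17p. The part of the vehicle array in these differences was not tested.

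Markers of other cells are given as differences, since levels were lost. Of 5 blood cell markers measured, 1 was at least 1.5-fold higher with estradiol (CD14) and 1 with ERα17p (LYZ), 0 were lower, and their differences ran from -0.29 to 0.75 with estradiol and from -0.11 to 0.78 with ERα17p. Of 6 fibroblast and endothelial markers, 1 was higher with estradiol (LUM, 1.01) and 0 with ERα17p; between the treated arrays LUM was lower with ERα17p, at -0.63. Of 6 markers of mesenchymal-like breast lines, 1 was higher with estradiol and 2 with ERα17p, and 0 were lower. SNAI2 led at 1.84 and 2.08, whereas VIM (-0.23 and -0.17) and AXL (-0.10 and -0.22) lay below vehicle within the limit. Of 7 luminal markers 1 was higher (EPCAM, 0.78) and 1 lower (KRT18, -0.84) with estradiol, and KRT18 was lower with ERα17p at -0.87. The part of any such cells in the members' differences was not tested.

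The sequence just before a gene's start is where factors that switch it on are usually bound, and those of both cyclooxygenases, PTGES and PLA2G4A are shown because PTGS2, PTGES and PLA2G4A stood furthest above vehicle with estradiol and PTGS1 did not. They are the 250 bases before the start, from RefSeq on GRCh38.p14. All 7 members were found in that table, PTGS1 and HPGD with 2 starts each. PTGS2 lies on the minus strand at chr1:186680424-186680673. The PTGS1 starts are on the plus strand, with chr9:122370283-122370532 before the first and chr9:122375052-122375301 before the second. The PTGES stretch is chr9:129753043-129753292 on the minus strand and that of PLA2G4A is chr1:186828699-186828948 on the plus strand. Each is written from its 5′ end, and capitals mark every match to 1 of the 8 motifs searched, on either strand.
PTGS2: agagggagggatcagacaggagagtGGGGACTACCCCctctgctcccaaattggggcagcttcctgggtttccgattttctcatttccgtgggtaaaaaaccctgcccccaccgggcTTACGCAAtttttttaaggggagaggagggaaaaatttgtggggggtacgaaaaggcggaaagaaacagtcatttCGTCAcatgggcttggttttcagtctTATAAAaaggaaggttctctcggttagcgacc
PTGS1, first start: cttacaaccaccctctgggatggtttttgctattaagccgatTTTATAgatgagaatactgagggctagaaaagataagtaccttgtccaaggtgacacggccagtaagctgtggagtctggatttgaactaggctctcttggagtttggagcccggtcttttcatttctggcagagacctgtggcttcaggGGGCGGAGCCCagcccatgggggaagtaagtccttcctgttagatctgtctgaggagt
PTGS1, second start: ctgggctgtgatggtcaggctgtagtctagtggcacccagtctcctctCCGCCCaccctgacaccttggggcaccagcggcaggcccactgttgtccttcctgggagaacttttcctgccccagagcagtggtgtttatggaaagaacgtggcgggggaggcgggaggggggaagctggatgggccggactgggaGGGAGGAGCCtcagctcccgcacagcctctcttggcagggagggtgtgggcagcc
PTGES: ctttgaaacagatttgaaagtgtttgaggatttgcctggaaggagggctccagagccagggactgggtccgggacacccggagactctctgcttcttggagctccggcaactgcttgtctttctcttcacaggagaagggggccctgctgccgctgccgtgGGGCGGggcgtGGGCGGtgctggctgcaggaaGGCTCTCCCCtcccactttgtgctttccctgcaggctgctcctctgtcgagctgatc
PLA2G4A: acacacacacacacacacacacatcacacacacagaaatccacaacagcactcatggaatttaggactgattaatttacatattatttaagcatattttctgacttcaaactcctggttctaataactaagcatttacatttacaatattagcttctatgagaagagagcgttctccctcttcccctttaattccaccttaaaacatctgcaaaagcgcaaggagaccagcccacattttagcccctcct

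The motifs were searched as letters, with N for any base, and were chosen after the PTGS2 sequence had been seen. The PTGS2 stretch held 4 kinds. Its TATA box (TATAAA) stood at -32 to -27 from the start, and 10.7% of the 35116 promoters in the table held that motif. The core of a cAMP response element (TGACG, 21.2% of promoters) stood at -58 to -54, on the opposite strand. A C/EBP-type motif (TTNNGCAA, 9.05%) was at -133 to -126. An NF-kB-type motif (GGG and CC with any 5 bases between them, 54.4%) matched in overlapping frames between -225 and -214.

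In PTGES the search found 2 GC boxes (GGGCGG, 42.6% of promoters) and 1 NF-kB-type match at -57 to -48, on the opposite strand. The first PTGS1 stretch held a TATA-box match at -208 to -203, on the opposite strand, and a GC box that overlaps an NF-kB-type match. The second held a GC box, on the opposite strand, and an NF-kB-type match. The PLA2G4A stretch, at 38.8% G and C against a median of 58% over all promoters, held 0 of the 8 motifs. None of the 7 members held the oestrogen response element (GGTCA and TGACC with any 3 bases between them, 0.0399% of promoters), the AP-1 motif (TGANTCA, 6.57%) or the E-box CACGTG (6.34%) in these windows. A match is a description of letters and shows no binding.

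PLA2G4A encodes the cytosolic phospholipase that frees arachidonic acid from membranes. Its only probe set, 210145_at, was at -0.27 with vehicle, 0.85 with estradiol and 0.03 with ERα17p. The estradiol array alone was high, and 99.5% of all probe sets on that array had a lower value. The log2 difference from vehicle was 1.12 with estradiol and 0.30 with ERα17p. Set directly against each other, the ERα17p array was 0.82 below the estradiol array (a difference of -0.82, or 1.76-fold). Only 112 of 19775 genes had a lower difference in that comparison, which subtracts no vehicle value. The difference was -1.12 after quantile normalisation of the deposited, already centred values, which gives all arrays the same distribution. That step acts on differences from the reference and not on expression levels. It draws on the more widely spread vehicle array too, so the larger value is not free of that array. Of all genes, 4.55% were at least 1.5-fold lower between the treated arrays after this step, against 2.04% before. The PLA2G4A difference rests on 1 probe set. In the same comparison the 18S ribosomal RNA was at 0.53 and LUM, a fibroblast marker, at -0.63, and their part in this difference was not tested.

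PTGS1 encodes the steady cyclooxygenase. Its 4 probe sets were all near the reference with vehicle, from -0.15 to 0.00. On the estradiol array 205127_at was at -0.16, 238669_at at -0.09, 215813_s_at at 0.22 and 205128_x_at at 0.30. On the ERα17p array the order was turned, with 205128_x_at lowest at -0.11, 215813_s_at at 0.00, 205127_at at 0.14 and 238669_at highest at 0.38. The probe sets disagreed about the sign between the treated arrays, from -0.41 to 0.47, so the gene median of 0.04 there has no common direction behind it. The gene's median difference from vehicle was 0.18 with estradiol and 0.13 with ERα17p.

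PTGS2 encodes the inducible cyclooxygenase. Its probe set 204748_at was at -2.61 with vehicle, 0.58 with estradiol and 0.76 with ERα17p. The other, 1554997_a_at, was at -1.26, 0.83 and 0.87. In both, the vehicle array was far below the treated arrays, which were close to each other. On the vehicle array 76 of 54675 probe sets had a lower value than 204748_at and 956 a lower value than 1554997_a_at.

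Against vehicle, the log2 difference of PTGS2 was 3.19 and 2.08 by probe set with estradiol, a gene median of 2.64. With ERα17p it was 3.38 and 2.12, a median of 2.75. Of 19775 genes, 31 had a higher difference with estradiol and 21 with ERα17p. The probe sets differed in size by 1.11 and 1.25 but not in sign. Between the treated arrays PTGS2 differed by 0.11 (0.04 and 0.19 by probe set), or 1.08-fold. Against the deposited reference in place of vehicle, PTGS2 was at 0.70 with estradiol and 0.82 with ERα17p, both past 1.5-fold. In that comparison 1.28% and 0.496% of all genes were past it on the high side, and 0.516% and 0.632% on the low side, where 0 members lay. The arrays behind the reference are not known and may include the vehicle array, so this value is not shown to be free of it.

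**Figure D1:**
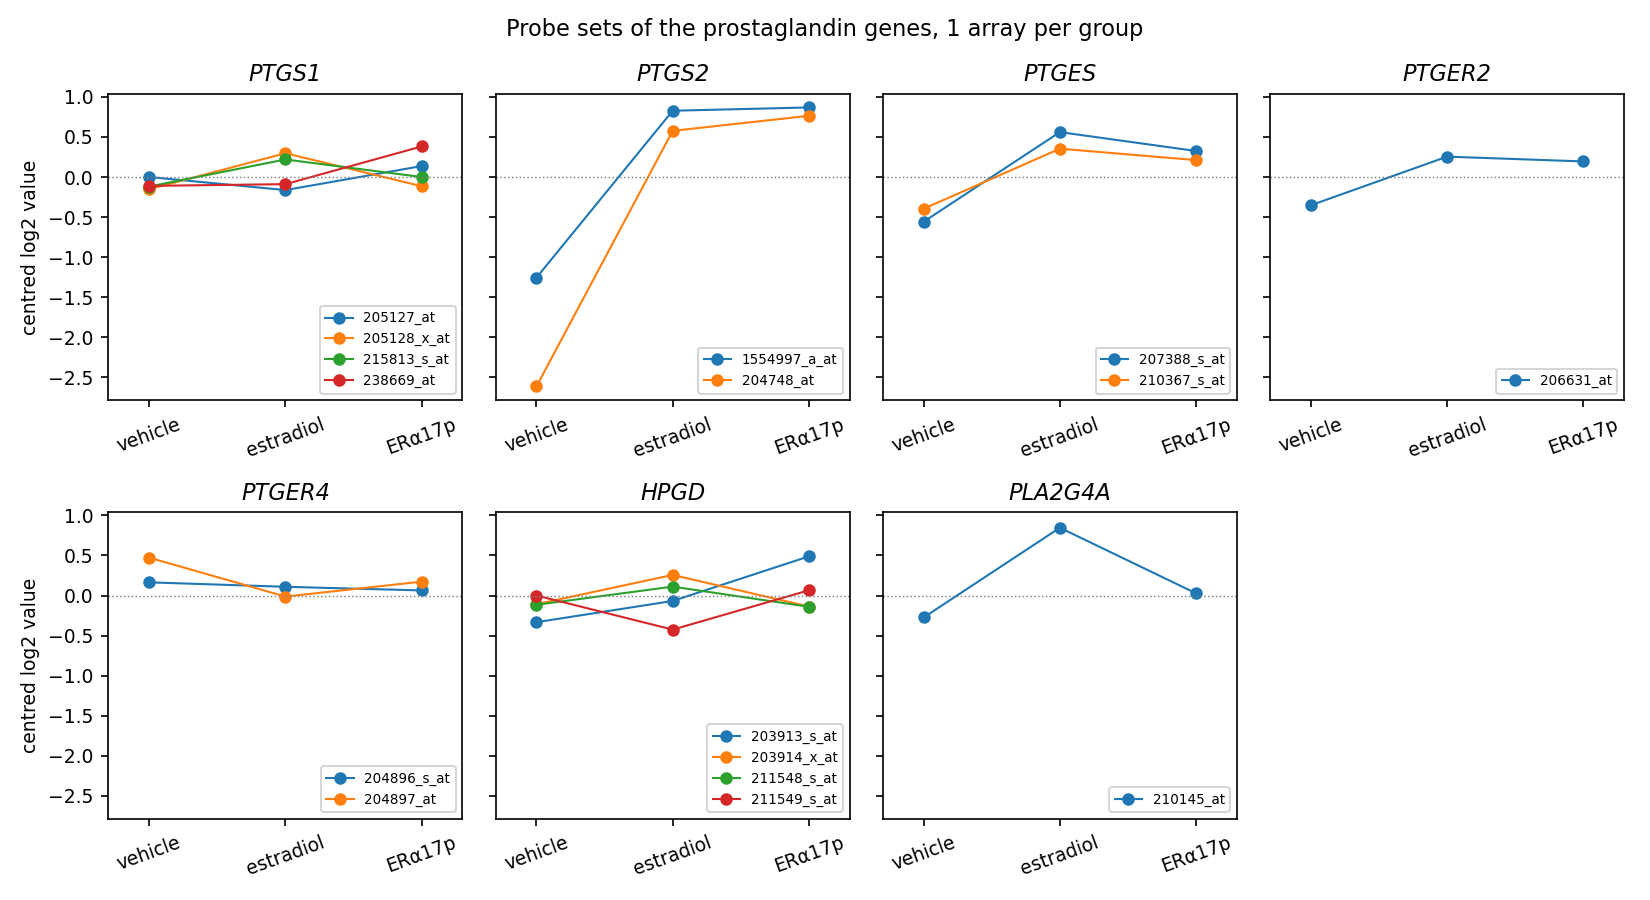
Centred log2 value (vertical axis) of each probe set of the 7 genes in each group, 1 array per group; each line joins the values of 1 probe set, and the dotted line is the deposited reference. PTGS2 on the vehicle array, at -2.61 and -1.26, gives the lowest points of any panel, and the probe sets of PTGS1 and HPGD cross between the treated arrays.

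PTGES encodes the inducible synthase that makes prostaglandin E2 from the product of the cyclooxygenases. Its probe set 207388_s_at was at -0.56 with vehicle, 0.56 with estradiol and 0.32 with ERα17p. The other, 210367_s_at, was at -0.40, 0.35 and 0.21. Vehicle was lowest and estradiol highest in both. The median difference from vehicle was 0.93 with estradiol and 0.74 with ERα17p, and the probe sets lay within 0.37 and 0.28 of each other. ERα17p was 0.19 below estradiol (a difference of -0.19). Against the reference PTGES was at 0.46 and 0.27, inside 1.5-fold. Both probe sets carry the suffix that the array maker gives to sets that can match more than 1 transcript.

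PTGER2 and PTGER4 encode the EP2 and EP4 receptors, which answer to prostaglandin E2 by raising cAMP. The PTGER2 probe set, 206631_at, was at -0.35 with vehicle, 0.25 with estradiol and 0.19 with ERα17p, so that vehicle was low. Its difference was 0.61 with estradiol, just past 1.5-fold, and 0.55 with ERα17p, just short of it. These differences are 1.52-fold and 1.46-fold, and the treated arrays differed from each other by -0.06 only. Being on different sides of the limit is no difference between the treatments.

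PTGER4 went the other way. Its probe set 204897_at was at 0.47 with vehicle, -0.01 with estradiol and 0.17 with ERα17p, and 204896_s_at was at 0.16, 0.11 and 0.06. Vehicle was highest in both. The median difference was -0.27 with estradiol and -0.20 with ERα17p, and 204897_at alone gave -0.49 and -0.30. PTGER4 was the only member below vehicle in either comparison, and it did not pass 1.5-fold. Against the reference it was at 0.05 and 0.12.

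HPGD encodes the dehydrogenase that starts the breakdown of prostaglandins. Its 4 probe sets lay between -0.33 and 0.00 with vehicle. On the estradiol array they ran from -0.43 (211549_s_at) to 0.26 (203914_x_at), and with ERα17p from -0.14 (211548_s_at and 203914_x_at) to 0.49 (203913_s_at). Groups overlapped and the probe sets did not move together. Only 203913_s_at passed 1.5-fold in a comparison, at 0.82 with ERα17p, where the other 3 were between -0.03 and 0.06. The gene median was 0.25 with estradiol and 0.02 with ERα17p. The median of the direct differences between the treated arrays was 0.12, of the opposite sign to the step between these medians, because different probe sets set each of them.

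Of the 7 members, 4 were at least 1.5-fold higher with estradiol and 0 lower, where 10.6% of all genes were higher and 8.42% lower. With ERα17p, 2 were higher and 0 lower, where 9.56% were higher and 8.82% lower. These shares are printed beside the counts only, since the members were chosen with the differences known. At 2-fold, PTGS2 and PLA2G4A were higher with estradiol and 0 members lower (3.94% and 2.18% of all genes), and PTGS2 was higher with ERα17p and 0 members lower (3.34% and 2.48%). The members' median difference was 0.61 with estradiol and 0.30 with ERα17p, against 0.00 for all genes in both. Between the treated arrays 0 members were higher and 1, PLA2G4A, was lower, where 1.29% and 2.04% of all genes were past the limit. At 2-fold 0 members differed in either direction there (0.0354% of all genes higher and 0.212% lower). The members' median there was 0.04, against -0.01 for all genes.

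**Figure D2:**
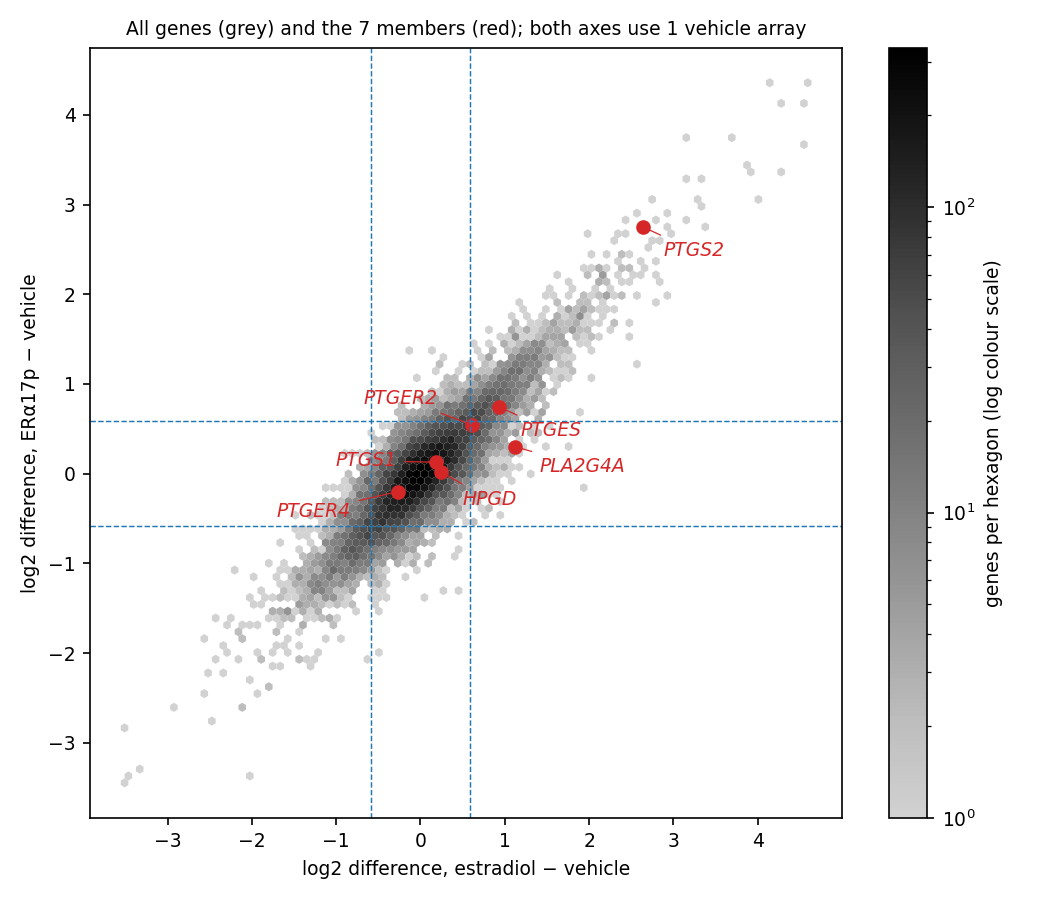
Log2 difference from vehicle with estradiol (horizontal axis) and with ERα17p (vertical axis) for 19775 genes, shaded by the number of genes per hexagon on a log scale, with the 7 members as red points and 1.5-fold as dashed lines. Both axes subtract the same vehicle array, and its part in the spread of the cloud along the diagonal was not tested. PTGS2 lies far out at 2.64 and 2.75, and PLA2G4A lies below the diagonal at 1.12 and 0.30.

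The other genes of the pathway were taken from 7 lists, which hold 75 genes besides the members, and 69 of the 75 were measured. With estradiol, 4 of the 69 passed 1.5-fold on the high side and 7 on the low side, and their median was -0.05. With ERα17p, 2 were higher and 7 lower, also with a median of -0.05. The shares of all genes past the limit are those given above, and the median of all genes was 0.00 in both comparisons.

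Among genes that release or re-use arachidonic acid, 0 of 11 others were higher and 3 were lower with each treatment. The 3 were MGLL, the lipase of monoacylglycerols (-1.20 with estradiol and -1.34 with ERα17p), DAGLB, a diacylglycerol lipase (-0.90 and -0.77), and MBOAT7, which puts arachidonic acid back into phospholipids (-0.71 and -0.64). Both MGLL probe sets were high on the vehicle array, at 1.14 and 1.16, and between -0.26 and 0.00 on the treated arrays. Of the 4 DAGLB probe sets, 225828_at gave 0.00 with ERα17p and the others -0.56 or below. These 3 genes thus lay on the other side of vehicle from PLA2G4A.

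Of 8 other prostanoid synthases measured, 1 was higher with each treatment. AKR1C3, an aldo-keto reductase that can make prostaglandin F and also acts on steroids, was at -2.02 with vehicle, 0.88 with estradiol and 0.00 with ERα17p. Its difference was 2.91 with estradiol and 2.02 with ERα17p, and -0.88 between the treated arrays. As for PLA2G4A, the estradiol array was the higher of the treated arrays. AKR1C3 has near-identical relatives, so what its single probe set reads is uncertain. The other E synthases did not share the direction of PTGES in both cases, with PTGES2 at -0.52 and -0.60 and PTGES3, a chaperone partner with synthase activity, at 0.31 and 0.43. PTGES2 was the only one lower, and only past the limit with ERα17p.

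By gene median, the 7 other prostanoid receptors all lay within 1.5-fold in every comparison, although single probe sets passed it. For PTGIR, 1555620_a_at was at -0.79 with estradiol against vehicle and at 0.91 with ERα17p against estradiol. Its other probe set, 206187_at, was at -0.16 and 0.00 in these comparisons. PTGER1, the EP1 receptor, was at -0.57 with estradiol and -0.41 with ERα17p, TBXA2R, the thromboxane receptor, at -0.27 and -0.35, and PTGIR, the prostacyclin receptor, at -0.47 and -0.02. Of 5 other genes of transport and breakdown, ABCC4, an exporter of prostaglandins, was higher with estradiol (0.65) and stood at 0.50 with ERα17p, with its 4 probe sets between -0.50 and 1.49 and between -0.13 and 0.94. The reductases PTGR2 (0.30 and 0.50) and PTGR1 (0.18 and 0.02) were inside the limit.

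In the lipoxygenase and epoxygenase branches, which make leukotrienes and epoxides from the same acid, 0 of 15 genes were higher and 1 was lower with each treatment. That gene was EPHX1, an epoxide hydrolase, at -0.99 and -1.39. EPHX2, the soluble epoxide hydrolase, was at 0.23 and 0.58, just inside the limit, and LTB4R, a leukotriene receptor, at -0.24 and -0.37.

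**Figure D3:**
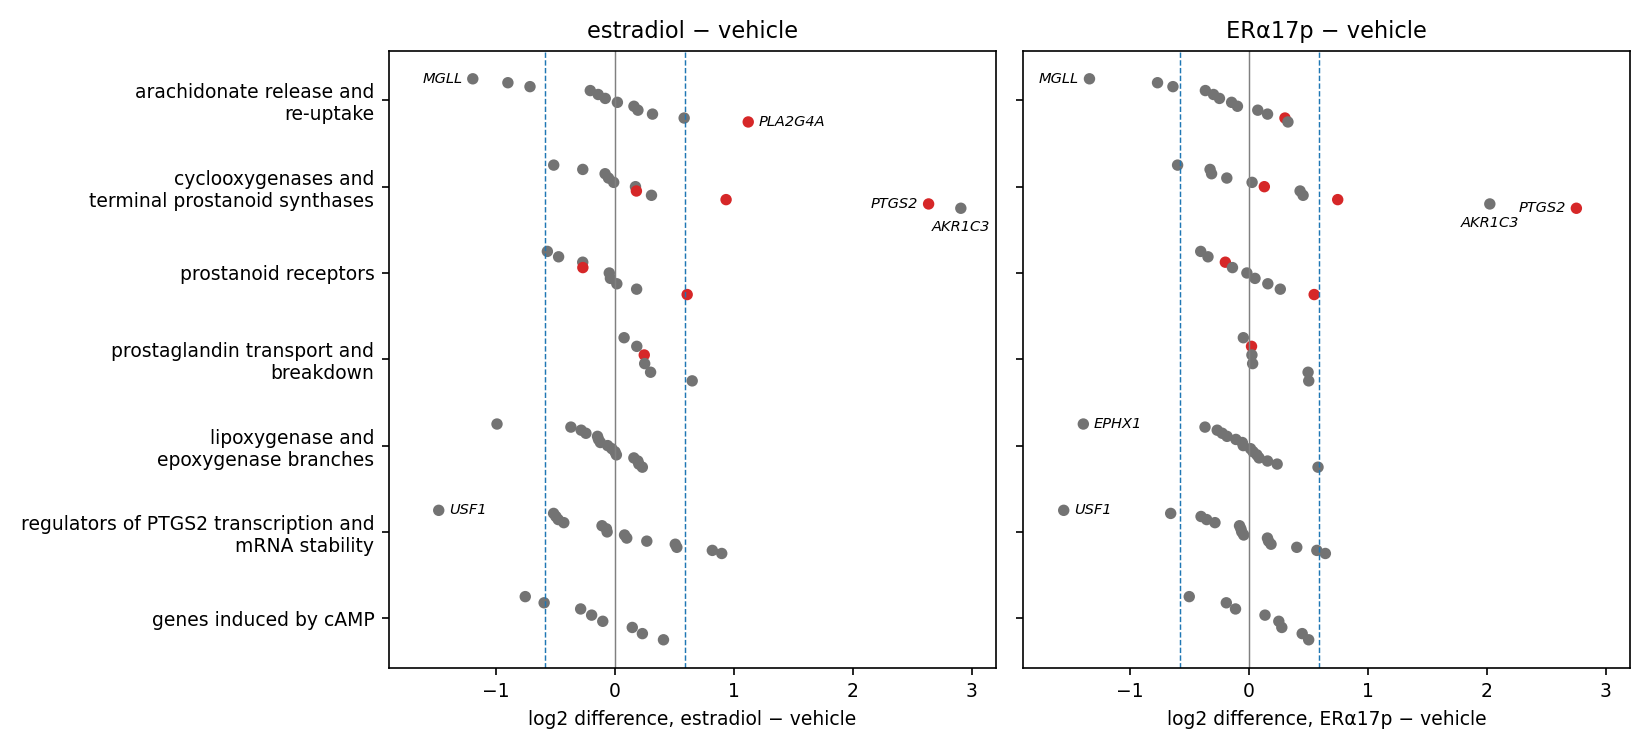
Log2 difference from vehicle (horizontal axis) with estradiol, left, and ERα17p, right, for every measured gene of the 7 lists (rows); members are red, other genes grey, dashed lines mark 1.5-fold and genes past 2-fold are named. PTGS2 and AKR1C3 stand far to the right in both panels, at 2.64 and 2.91 with estradiol and 2.75 and 2.02 with ERα17p, and the receptors lie between -0.57 and 0.61.

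Known regulators of PTGS2 transcription and RNA stability did not move in 1 direction. Of 15, 2 were higher and 1 lower with estradiol, and 1 higher and 2 lower with ERα17p. NFKB1, a subunit of NF-kB, was at -0.64 with vehicle, 0.26 with estradiol and 0.00 with ERα17p, a difference of 0.90 and 0.64. ATF2, which binds cAMP response elements, was at 0.82 and 0.40. USF1, an E-box factor, was at -1.48 and -1.56, and CEBPB, a C/EBP factor, at -0.43 and -0.66. ZFP36, which speeds the decay of PTGS2 RNA, was at -0.11 and -0.07. CEBPB and ZFP36 were outside the rule for naming genes and were chosen after their values were seen.

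By gene median, 0 of 8 genes usually induced by cAMP, the second messenger of EP2 and EP4, were higher in either comparison. With estradiol 2 were lower, DUSP1, a phosphatase (-0.75), and NR4A3, a nuclear receptor (-0.60). With ERα17p 0 were lower, and these genes were at -0.50 and -0.19. The DUSP1 probe sets ran from -2.09 to 0.05 with estradiol and from -2.38 to -0.06 with ERα17p. NR4A3 was the only list gene at least 1.5-fold higher with ERα17p than with estradiol, at 0.77. Its 3 probe sets ran from -0.27 to 0.79 in that comparison. PDE4B, a phosphodiesterase, was at 0.41 and 0.50. Its 3 probe sets ran from 0.13 to 0.83 with estradiol and from 0.07 to 1.08 with ERα17p. Single probe sets of other genes in this list also passed the limit on the high side.

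On chromosome 1 PLA2G4A and PTGS2 are neighbours, with no other protein-coding gene between their starts in the RefSeq table. The gene on the other side of PTGS2, PDC, was at 0.52 with estradiol and 0.22 with ERα17p, and the one beyond PLA2G4A, BRINP3, at 0.07 and 0.16. On chromosome 14 the neighbours of PTGER2 are PTGDR, another prostanoid receptor, at 0.02 and 0.16, and TXNDC16, at 0.83 and 0.80. PTGS1 and PTGES are both on chromosome 9 and are not neighbours.

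The genes whose differences from vehicle were most like those of PTGS2, by Euclidean distance over both differences among 10518 genes with at least 2 probe sets, were GBP1, NOX5 and RAB27B. GBP1, a GTPase of the interferon response, was at 2.45 and 2.66 (distance 0.21), although 1 of its 4 probe sets was at 0.00 with estradiol. NOX5, an oxidase that makes superoxide, was at 2.69 and 2.53 (0.22), and RAB27B, a GTPase of vesicle traffic, at 2.87 and 2.58 (0.29). The likeness covers 3 arrays and both differences share the vehicle array.

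**Figure D4:**
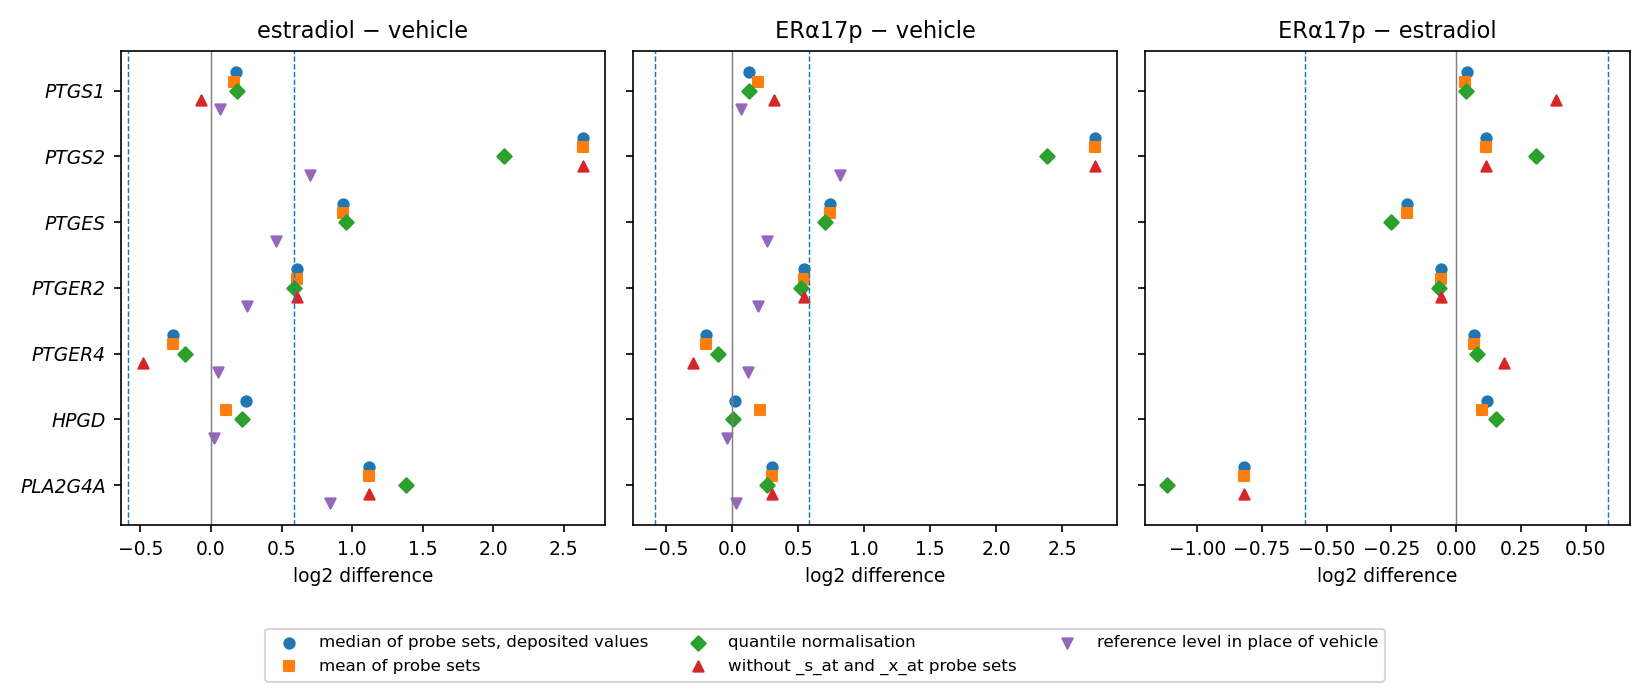
Log2 difference (horizontal axis) of each member in the 3 comparisons under each way of processing (symbols), with 1.5-fold as dashed lines. PTGS2 stays past the limit against vehicle under every setting shown, down to 0.70 and 0.82 against the deposited reference, and PLA2G4A stays past it between the treated arrays, at -0.82 or below. For both genes the mean of probe sets and the omission of _s_at and _x_at probe sets repeat the main value by construction.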

How the data were processed

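RNA from MDA-MB-231 cells was hybridised to Affymetrix HG-U133 Plus 2 arrays, per the labels' protocols. The submitters' processing notes name RMA, which corrects background, quantile-normalises and summarises probes, and give no version of it. RMA yields log2 values, so the deposited values are read as log2, although no source states the base. They were centred per probe set by a step that no source describes, and every array had a median of 0. Centring leaves differences between arrays untouched.

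Symbols came from the platform annotation. Of 54675 probe sets, 41097 had 1 symbol, 1801 had several and were not used, and 11777 were unnamed. A gene's difference was the median over its probe sets. Python 3.11.15, pandas 2.3.3 and NumPy 2.4.6 were used, and the gene summary was tested on simulated data. With 1 array per group there was no test, and precision is limited by the number of arrays. The members and lists were chosen with earlier results of these data known. Besides the members and the cell markers, the rule named the 3 genes with the largest absolute mean difference from vehicle in each list. It also named the 3 nearest to PTGS2. Genome neighbours, CEBPB and ZFP36 were added after the values were seen. Alternatives were the mean of probe sets, quantile normalisation of the centred values, and leaving out probe sets with the suffixes _s_at and _x_at. Others were 2-fold calls and the deposited reference in place of vehicle.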

Additional observations from a re-analysis of the deposited data

How the results depend on the processing

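With no replicates, a count was taken as moved when it changed by over 1.5 times and a gene's difference when it shifted by 1.5-fold. Of 71 differences of single members under alternatives, 69 shifted by less. The exceptions were PTGS2 against the deposited reference, at 0.70 with estradiol and 0.82 with ERα17p. Some of the 71 could not shift, so the count is no measure of stability. For members with 1 or 2 probe sets the mean equals the median. PTGS2, PTGER2 and PLA2G4A have no _s_at or _x_at probe sets, so leaving these out repeats the main value. No called difference changed sign. The sign did change below the limit for PTGS1 with estradiol without _s_at and _x_at probe sets (-0.07), PTGER4 against the reference (0.05 and 0.12) and HPGD with ERα17p against it (-0.04). PTGES and HPGD have only such probe sets and had no value without them.

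Calls at 2-fold were necessarily fewer. Members higher were then 2 with estradiol and 1 with ERα17p, and 0 were lower between the treated arrays. Pathway genes, members included, were 3 higher and 2 lower with estradiol, 2 higher and 3 lower with ERα17p, and 0 and 0 between the treated arrays. Against the reference, members higher were 2 and 1, and pathway genes were 4 higher and 0 lower with estradiol and 1 higher and 1 lower with ERα17p. The shares of all genes at 2-fold and against the reference are those given above. Without _s_at and _x_at probe sets 1 member was higher with ERα17p, among 5 left, where 9.23% of all genes were higher. Quantile normalisation gave 3 pathway genes lower with ERα17p, in place of 7, where 7.53% of all genes were lower, against 8.82%. Between the treated arrays it gave 3 higher and 4 lower, in place of 1 and 2. There 3.25% and 4.55% of all genes were past the limit, against 1.29% and 2.04%. With the mean of probe sets 0 pathway genes were higher there (1.19% of all genes). Apart from what these settings leave out by construction, the cause was not tested. No paired analysis was possible because each group has 1 array. Depth has no counterpart here, and signal over background was lost with the centring.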
